A study of Mus musculus with 2 samples.

Results

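Vascular smooth muscle cells (SMCs) of the inflamed temporomandibular joint (TMJ) made up 240 of the 10109 cells kept from both libraries. They were chosen from raw counts of unique molecular identifiers (UMIs), each of which stands for 1 captured transcript. A barcode counted as a cell when it had at least 500 genes and under 10% of its UMIs from mitochondrial genes. A cell counted as an SMC when it held at least 2 UMIs of Myh11, at least 5 of Acta2 and Tagln together, and 0 of the leukocyte gene Ptprc and of the endothelial gene Pecam1. This gave 149 of 4352 cells in the WT library and 91 of 5757 in the Prox1 mutant library.

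Both libraries came from the TMJ of C57BL/6 mice aged 8 to 10 weeks that had received complete Freund's adjuvant (CFA), an agent that inflames the joint into which it is injected. Neither library is from an uninjected joint, so the CFA treatment is shared and its effect cannot be read here. One library is labelled WT and the other Prox1 mutant, which the study describes as the heterozygous Prox1+/- genotype in female mice. Prox1 is the transcription factor that sets the identity of lymphatic endothelium. No promoter or Cre that would confine the mutation to a cell type is named. How many mice were pooled in a library and how long after CFA the joints were taken are not given in the sources used here. With 1 library per condition there is no replicate spread, so library and genotype cannot be told apart, no test was made, and each interval below covers counting error only.

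SMCs wrap arteries, arterioles, veins and collecting lymphatic vessels and set the width of the vessel by contracting. Calcium that enters through voltage-gated channels or leaves internal stores activates myosin light chain kinase, and phosphorylated smooth muscle myosin then pulls on actin. Nitric oxide opposes this through soluble guanylate cyclase and cyclic GMP. SMCs of injured or inflamed vessels are known to lower their contractile genes and raise matrix and inflammatory genes, which is called phenotypic modulation.

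The label was checked first against its marker genes. Myh11, smooth muscle myosin heavy chain, had a median of 38 UMIs per SMC in WT, from 2 to 177, and a median of 52 in the mutant, from 2 to 365. Acta2, smooth muscle actin, had a median of 92 UMIs (0 to 498) and 78 UMIs (2 to 812). Tagln, the actin-binding transgelin, had a median of 50 UMIs (1 to 367) and 47 UMIs (0 to 436). These genes chose the cells, so their levels are a description, and the ranges of the libraries overlap throughout. Tpm2, a tropomyosin that the rule did not use, was found in 148 of 149 WT SMCs and 82 of 91 mutant SMCs, with medians of 28 and 23 UMIs.

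**Figure D1:**
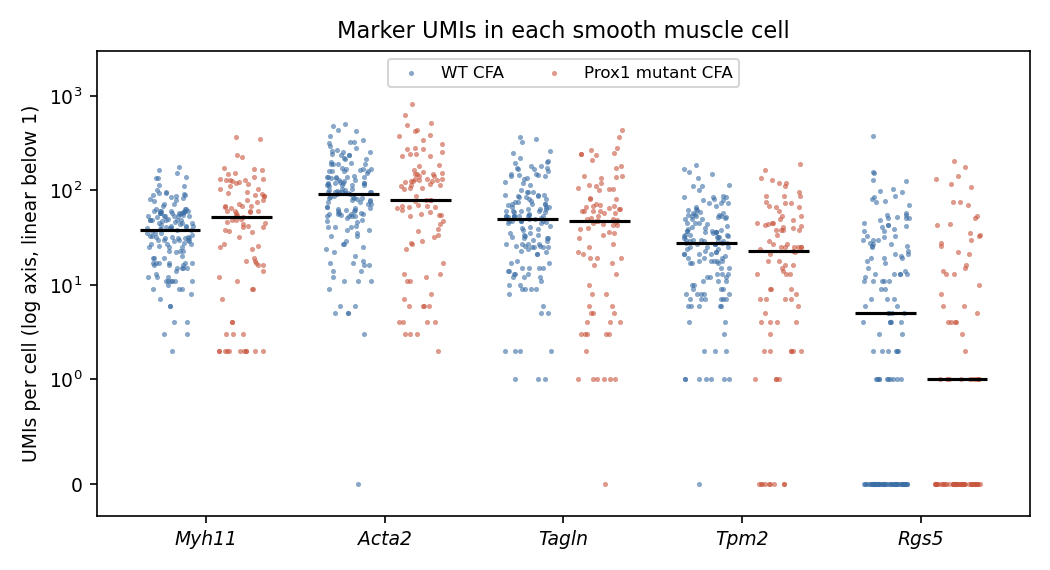
Each point is 1 SMC, and the y axis gives its UMIs of the gene on the x axis (log axis, linear below 1), for WT CFA in blue and Prox1 mutant CFA in red, with black lines at the medians. The libraries overlap for all 5 genes, and among them only Rgs5 has many cells at 0 (51 of 149 in WT and 45 of 91 in the mutant).

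The 20 genes that stood highest over all other kept cells in both libraries were Tagln, Acta2, Myh11, Myl9, Tpm2, Lmod1, Cnn1, Kcnab1, Pln, Ppp1r14a, Mustn1, Dgkb, Myom1, Myocd, Actg2, Cap2, Olfr558, Gucy1a1, Mrvi1 and Synpo2. Tagln, Acta2 and Myh11 chose the cells, so their place here is a description. The 20 genes include Myocd, the coactivator that drives smooth muscle genes, at 408 UMIs per 1000000 UMIs of the SMCs (CPM) in WT. In the mutant it stood at 347 CPM, and the other cells of the libraries had 4.94 and 4.45 CPM. Markers of skeletal muscle were scarce, with 14 genes that summed to 24.4 CPM in WT SMCs and 25.3 CPM in mutant SMCs. Of the 10 myoepithelial and epithelial genes 6 were at 0 in both libraries, and the list summed to 11012 and 11120 CPM because it holds Acta2 and Cnn1, which SMCs share. The cells are called SMCs throughout after the rule, which does not separate those of blood vessels from those of lymphatic vessels. For 14 mutant cells with 2 or 3 Myh11 UMIs the name is less sure. Of these, 12 held Myl9, 6 Tpm2, 1 Lmod1 and 0 Cnn1.

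RNA of other lineages was present in some SMCs and was not equal between the libraries. The 10 macrophage and neutrophil genes summed to 449 CPM in WT SMCs and 1009 CPM in mutant SMCs, with Lyz2 the most abundant in WT and none at 0. The 7 haemoglobin and other erythroid genes summed to 14741 CPM in WT against 19957 CPM in the mutant, with Hbb-bs highest in WT and none at 0. The 10 fibroblast genes went the other way, with 2353 CPM in WT against 784 CPM in the mutant, led by Col3a1. The 10 endothelial genes were even, at 74.5 and 74.9 CPM. The same lists summed over all other cells to 23638 and 27844 CPM for macrophage and neutrophil genes, 34865 and 89714 CPM for erythroid genes, and 6830 and 3603 CPM for fibroblast genes. The part of free RNA and of doublets in these values was not tested.

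Prox1 itself was counted as a check of the labels. All kept cells held 563 Prox1 UMIs in WT (145 cells, 11.6 CPM) and 315 in the mutant (94 cells, 5.80 CPM). Endothelial cells held 298 (37 cells, 40.4 CPM) and 90 (15 cells, 21.3 CPM). So few cells from 1 library per condition do not settle the genotype. SMCs held 16 Prox1 UMIs in 13 cells in WT and 14 in 8 cells in the mutant.

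The SMCs were deeper than the average cell. Their median was 9490 UMIs and 3184 genes in WT and 12866 UMIs and 3731 genes in the mutant, against 6997 and 4848 UMIs over all kept cells. The shallowest SMC had 843 UMIs in WT and 881 in the mutant, and 4 and 9 SMCs had fewer than 2000. Mitochondrial genes took a median of 5.63% and 4.79% of the UMIs of SMCs, compared with 1.92% and 1.42% in the other cells. The 10 barcodes found in both libraries included no SMC.

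Few WT cells and more mutant cells lay at the edge of the rule. With Myh11 at exactly 2 UMIs, just inside, stood 1 WT and 11 mutant SMCs, and with 1 Myh11 UMI, just outside, stood 3 WT and 12 mutant cells that met the rest of the rule. Cells with enough Myh11, Acta2 and Tagln that were left out for a Ptprc or Pecam1 UMI numbered 47 in WT and 57 in the mutant. The mutant SMCs with 2 or 3 Myh11 UMIs, 14 cells, had a median of 2096 UMIs and took 16.8% of their UMIs from haemoglobin genes. All 14 held S100a9, a neutrophil gene, and 6 held Tpm2. The 146 WT and 77 mutant SMCs with 4 or more Myh11 UMIs took 1.47% and 1.54% of their UMIs from haemoglobin genes, and their contractile genes summed to 60695 and 64305 CPM. Cells this close to the edge took more of the mutant SMCs (14 of 91) than of the WT SMCs (3 of 149).

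The promoters of contractile genes are known to carry CArG boxes, a CC and a GG around a run of A and T, which are the sites of serum response factor, the partner of Myocd. In the RefSeq promoter table (GRCm38.p6, 250 bases before to 50 after each start), 5 of the 31 contractile genes it holds had a CArG box on either strand (16.1%), against 488 of all 27025 genes (1.81%). The other 5 contractile genes, Tagln and Myh11 among them, are not in the table. The boxes are shown with 10 bases on each side, 5′ to 3′ on the strand of the gene, and the capitals mark the box.
Myl9: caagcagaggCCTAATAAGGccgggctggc
Myl6: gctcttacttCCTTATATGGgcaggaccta
Vcl: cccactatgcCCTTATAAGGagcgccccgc
Ldb3: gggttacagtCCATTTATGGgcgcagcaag
Fhl1: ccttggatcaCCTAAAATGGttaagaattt
The stretch of Myl9, the regulatory myosin light chain, lies at chr2:156775293-156775322 on the + strand, with its box starting 161 bases before the start of the gene. That of Myl6, the essential light chain, lies at chr10:128493040-128493069 on the - strand, 50 bases before a start. Those of the adhesion protein gene Vcl (chr14:20929161-20929190, + strand), the Z-band protein gene Ldb3 (chr14:34588697-34588726, - strand) and the LIM protein gene Fhl1 (chrX:56779571-56779600, + strand) start 227, 109 and 102 bases before a start. For Ldb3 the same box lies 35 bases before a second start. The ion channel list had 1 box among 20 genes (5%), the transcription factor list 1 among 27 (3.70%), and the fibrillar matrix list 0 among 15. A match is a run of letters and not a measured binding site, and the windows of Acta2 had none. Only an unbroken run of A and T was accepted, so boxes with another base in the run were not counted, for Acta2 or any gene.

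SMCs took a smaller share of the cells in the mutant library. They were 3.42% of kept WT cells (95% Clopper-Pearson interval 2.90 to 4.01) and 1.58% of kept mutant cells (1.27 to 1.94). The difference was -1.84 percentage points (Newcombe interval -2.49 to -1.23), and the mutant share was 0.462 times that of WT (0.352 to 0.603). The intervals of the shares do not overlap. With only the SMCs that held 4 or more Myh11 UMIs, the shares were 3.35% and 1.34%.

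Other cells of the vessel wall and the stroma took smaller shares as well, so the fold depended on the denominator. Endothelial cells, taken as cells with Pecam1 and Cdh5, were 23.6% of the WT library and 9.50% of the mutant library, a ratio of 0.402 (0.362 to 0.446). Fibroblasts, taken by Pdgfra with Dcn or Col3a1, had a ratio of 0.474 (0.404 to 0.555), while neutrophils, taken by S100a8 and S100a9, had a ratio of 1.52. SMCs were 26.5% of SMCs and fibroblasts together in WT and 26.0% in the mutant, a difference of -0.512 points (-6.26 to 5.45). Among SMCs and endothelial cells they were 12.6% and 14.3%, a difference of 1.61 points (-1.60 to 5.04). Pericytes, the mural cells of capillaries, were taken by Rgs5 with Kcnj8 or Abcc9 and fewer than 2 UMIs of Myh11, which sets them apart from SMCs, and numbered only 15 and 16 cells. SMCs were 90.9% and 85.0% of these mural cells, a difference of -5.81 points (-14.5 to 1.92). A share within a digested joint counts the cells that were released and captured, and the part of dissociation in it was not tested. Without cells of over 5% haemoglobin UMIs in the denominator, the mutant share was 0.722 times that of WT.

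**Figure D2:**
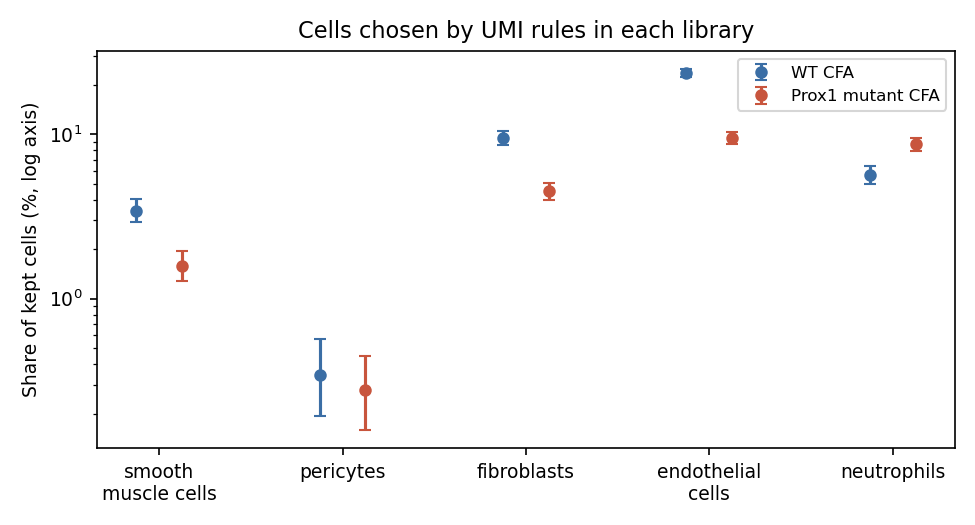
Points give the share of kept cells (%, log axis) chosen by each UMI rule in the WT CFA library (blue) and the Prox1 mutant CFA library (red), with 95% Clopper-Pearson intervals. SMCs, fibroblasts and endothelial cells have lower shares in the mutant (ratios of 0.462, 0.474 and 0.402), pericytes have wide intervals, and neutrophils have a higher share.

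Gene levels were compared between the SMCs of the libraries as sums, 1597840 UMIs in WT and 1108572 in the mutant, each scaled to CPM. Of 4423 genes with at least 100 UMIs over both libraries, 61 (1.38%) were at least 2-fold higher in mutant SMCs and 75 (1.7%) at least 2-fold lower. The median log2 ratio of mutant over WT was -0.02, and 87.9% of the genes lay within 1.5-fold. With each gene's top cell left out of both libraries, 52 of the 61 and 59 of the 75 stayed past the fold. Of the genes past the fold, 16 higher and 20 lower were past it in the same direction in all other kept cells too. One of these was Rpl29, a ribosomal protein gene, which stood at 364 CPM in WT SMCs and 9.02 CPM in mutant SMCs, and at 584 and 14.2 CPM in the other cells.

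A single WT cell held much of what was lower in the mutant. It was the deepest cell that met the SMC rule, with 48202 UMIs (3.02% of all UMIs of WT SMCs). It had 31 UMIs of Myh11 (643 CPM) and 71 of Acta2 and Tagln together, with Acta2 at 1162 CPM. Both levels were below those over all WT SMCs given further down. The cell also held 479 UMIs of markers of other lineages, 463 of them Dcn. The part of fibroblast RNA or of a doublet in it was not tested. This cell held all 413 UMIs of the matrix protease gene Mmp3 in WT, which was at 0 in the mutant. Of Saa3, an acute phase protein gene, it held 1258 of 1273 UMIs. It also held 463 of 776 UMIs of the proteoglycan gene Dcn and 504 of 836 of Col1a1, a chain of type I collagen. Without it 53 genes were lower and 59 higher, of which 51 and 59 were among those counted with it. Lists and genes to which it gave many UMIs are therefore given below also without this cell.

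**Figure D3:**
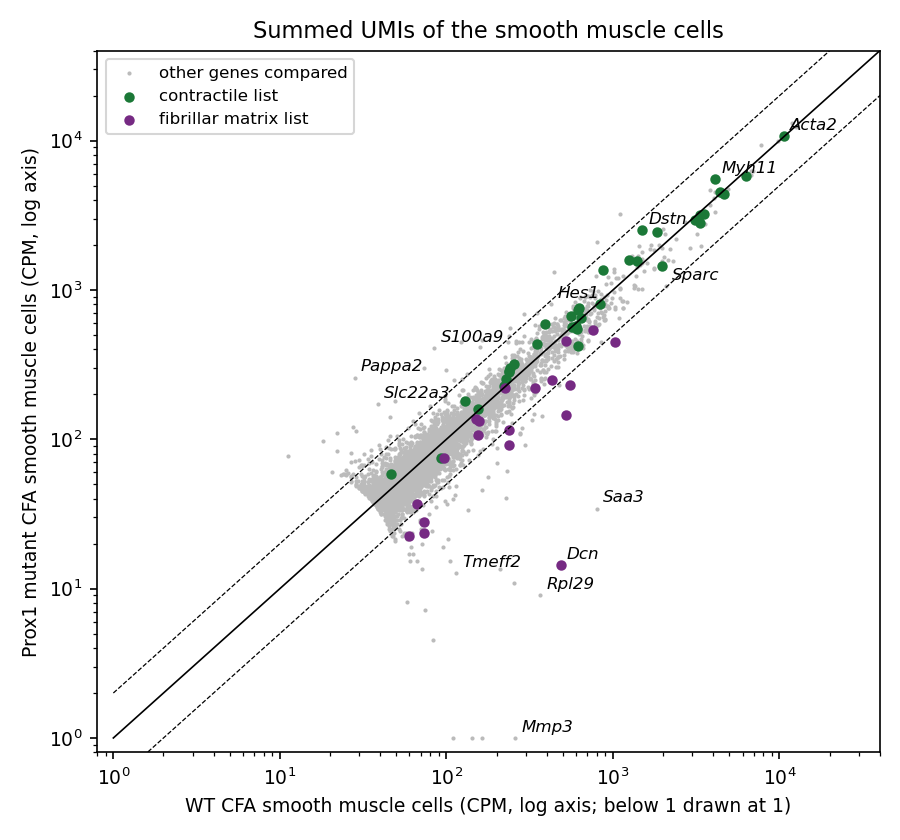
Each point is 1 of 4423 genes, with its CPM in the summed WT SMCs on the x axis and in the summed mutant SMCs on the y axis (log axes), a solid line at equal values and dashed lines at 2-fold. Contractile genes (green) lie along the solid line, while fibrillar matrix genes (purple) such as Dcn lie below it, as do Rpl29 and Mmp3.

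The contractile apparatus was close between the libraries. None of the 36 contractile genes was past the fold, where 1.38% of all genes were higher and 1.7% lower. Their log2 ratios ran from -0.56 to 0.74 with a median of 0.10, and 24 lay above 0 and 12 below. Together they made up 60510 CPM in WT SMCs and 62953 CPM in mutant SMCs. Myh11, Acta2 and Tagln chose the cells and are a description only. The other 33 genes had a median of 0.16, with 22 above 0 and 11 below, and summed to 39474 and 40963 CPM. The median over all 4423 genes was -0.02, so the list stood close to the rest of the transcriptome. Acta2 was at 10659 and 10684 CPM, Tagln at 6275 and 5780 CPM, and Myl9 at 3338 and 3193 CPM. Myh11 was at 4102 and 5527 CPM, a log2 ratio of 0.43 (0.38 to 0.48).

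At the ends of this list stood regulators of actin and myosin. Dstn, destrin, which severs actin filaments, was highest in the mutant relative to WT, with 1501 CPM in WT against 2505 CPM in the mutant (log2 0.74, 0.66 to 0.82), and the same gene had a log2 ratio of 0.54 in the other cells. Synpo2, which bundles actin, stood at 874 and 1362 CPM (0.64, 0.53 to 0.75), Pdlim3, a Z-line adaptor, at 392 and 592 CPM, and Mylk, the kinase that starts contraction, at 1834 and 2458 CPM (0.42). Below 0 were Ppp1r14a, the inhibitor of myosin phosphatase, at 621 and 421 CPM (-0.56, -0.72 to -0.40), and Mustn1 at 1978 and 1442 CPM (-0.46). Tpm2 stood at 3336 and 2812 CPM (-0.25). The intervals given leave out 0, but they say nothing of the spread between mice.

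Ion channels and calcium stores were likewise within the fold. Of 27 genes of this list 21 were compared, and none was past the fold, where 1.38% of all genes were higher and 1.7% lower. The median log2 ratio was 0.20, with 16 above 0, and the lowest was -0.74. Once each gene's top cell was left out, 1 gene was lower by the fold. Cacna1c, the pore of the L-type calcium channel, stood at 1436 CPM in WT against 1983 CPM in the mutant (0.47, 0.38 to 0.55), and in the other cells its ratio was -0.57. Itpr1, a calcium release channel of the store, stood at 523 and 715 CPM (0.45), Ryr2, the other kind of release channel, at 206 and 296 CPM (0.52), and Atp2a2, the pump that refills the store, at 934 and 1215 CPM (0.38). Pln, phospholamban, which restrains that pump, stood at 387 and 430 CPM, and Kcnma1, the calcium-activated potassium channel that limits contraction, at 576 and 753 CPM (0.39). Kcna5, a voltage-gated potassium channel, was on the other side, with 141 and 103 CPM (-0.46, -0.80 to -0.13).

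The relaxing pathway of cyclic GMP was nearly even. Gucy1a1 and Gucy1b1, the subunits of soluble guanylate cyclase, stood at 674 and 842 CPM and at 327 and 339 CPM. Prkg1, the kinase that cyclic GMP activates, stood at 4079 and 4555 CPM, and Pde5a, which degrades cyclic GMP, at 392 and 437 CPM. Of 10 genes compared, only Pde4d, which degrades cyclic AMP, was past the fold, where 1.7% of all genes were lower. It had 278 CPM in WT against 109 CPM in the mutant. The log2 ratio was -1.35 (-1.65 to -1.06), or -1.21 without the deepest WT cell. In the other cells Pde4d was also lower, with a ratio of -0.98.

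Receptors for vasoactive signals had few UMIs, and 6 of 28 reached the minimum. Their log2 ratios ran from -0.23 to 0.22, with none past the fold, where 1.38% of all genes were higher and 1.7% lower. Ednra, the main endothelin receptor of SMCs, stood at 289 CPM in WT against 274 CPM in the mutant, and Ednrb, its relative, at 175 and 151 CPM. Npy1r, a receptor for the sympathetic transmitter neuropeptide Y, stood at 190 and 213 CPM and Adra1a, an adrenoceptor, at 174 and 185 CPM. Calcrl and Ramp1, which together form the receptor of calcitonin gene-related peptide, stood at 72.0 and 83.9 CPM and at 150 and 127 CPM. The intervals of all 6 ratios include 0. Angiotensin receptors were near the limit of detection, with 13 and 12 UMIs of Agtr1a.

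Transcription factors of mural cells were within the fold for all 24 compared (1.38% of all genes were higher and 1.7% lower). Their median log2 ratio was -0.07. Hes1, a target of Notch signalling, had the largest ratio, 424 CPM in WT against 808 CPM in the mutant (0.93, 0.79 to 1.08), compared with 0.36 in the other cells. It was found in 121 of 149 WT SMCs and 72 of 91 mutant SMCs. Other Notch targets did not share its ratio. Heyl stood at 85.7 and 76.7 CPM (-0.16, -0.57 to 0.24) and Hey2 at 48.8 and 37.9 CPM (-0.37, -0.94 to 0.19), and the receptor Notch3 at 849 and 933 CPM (0.14). Meis2 (0.86, 0.49 to 1.23) and Foxo1 (0.77, 0.37 to 1.17) were also above 0, the latter at 0.35 once the top cell of each library was left out. Klf4, a factor linked to phenotypic modulation, stood at 406 and 398 CPM, and Myocd was given above.

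The growth factor pathways of the vessel wall had no gene past the fold among 18 compared, with a median of 0.12. Of all genes, 1.38% were higher and 1.7% lower. Once each gene's top cell was left out, 1 of the 18 was higher by the fold. Tgfb3, a transforming growth factor, stood at 119 CPM in WT against 199 CPM in the mutant (0.75, 0.46 to 1.03), and Smad3, which carries the signal to the nucleus, at 41.3 and 73.1 CPM (0.82, 0.34 to 1.31). Tgfbr2, the receptor that binds the ligand, was on the other side, at 82.0 and 47.8 CPM (-0.78, -1.27 to -0.31). Pdgfrb, the platelet-derived growth factor receptor of mural cells, stood at 332 and 345 CPM, and Jag1, a Notch ligand, at 181 and 227 CPM.

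Genes of the interstitial matrix were lower in the summed mutant SMCs, and a few cells set much of the size. Of 19 fibrillar matrix genes compared, 9 were lower by the fold and all 19 had ratios below 0, with a median of -0.84, where 1.7% of all genes were lower. Without that cell 4 were lower and the median was -0.52, and the same genes had a median of -0.54 in the other kept cells. The count of 9 became 0 without the deepest 5% of SMCs in each library, 2 with equal weight for each cell, 1 without SMCs that held 3 or more UMIs of another lineage, and 2 without SMCs that held 20 or more such UMIs or 100 or more of haemoglobin. With 3 or more UMIs as the limit and Dcn and Pdgfra not used, 1 of only 13 genes compared was lower and the median was 0.51, on the other side of 0. Col1a1 stood at 523 CPM in WT against 145 CPM in the mutant (-1.85), and at -0.56 without the cell. Col3a1, a chain of type III collagen, stood at 1024 and 451 CPM (-1.18), and at -0.62 without it. Dcn kept the largest gap of the list, 776 UMIs in 22 WT SMCs against 16 UMIs in 12 mutant SMCs, with log2 ratios of -5.07 with the cell and -3.81 without it. The Dcn ratio was -1.56 without the deepest 5% of SMCs in each library, and -1.55 with equal weight for each cell. Dcn is itself 1 of the 11 markers of the other-lineage filter, so it had to move there. With Dcn and Pdgfra not used in that filter, 10 Dcn UMIs in 75 WT SMCs and 3 in 34 mutant SMCs were left, a ratio of -1.26 (-3.76 to 0.70). Col8a1, a collagen of vessel walls, was in 19 and 7 SMCs (-1.65, and -1.70 without the cell), and Col14a1 (-1.40 and -1.13) and Col5a3 (-1.40 and -1.21) also stayed past the fold. The fibroblast genes counted above, of which Col1a1, Col3a1, Lum and Dcn belong to both lists, moved with this list, and the part of fibroblast RNA in it was not tested.

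Elastic fibre genes included 3 of 9 lower by the fold, where 1.7% of all genes were lower, with a median of -0.61. Without the deepest WT cell it was 1 of 9, with a median of -0.42. The same genes had a median of -0.60 in the other kept cells. The fibroblast genes, at 2353 and 784 CPM in the SMCs with 4 of 5 compared lower by the fold, moved with this list. The part of fibroblast RNA in it was not tested. Eln, elastin, stood at 386 CPM in WT against 253 CPM in the mutant (-0.60, -0.81 to -0.40). Mgp, which keeps calcium salts out of the vessel wall, stood at 659 and 431 CPM (-0.61, and -0.42 without that cell), and Fbn1, the microfibril protein fibrillin, at 200 and 87.5 CPM (-1.19, and -0.95 without the cell). Ltbp1, which ties latent transforming growth factor to microfibrils, was the only gene of the list above 0, at 262 and 444 CPM (0.76, 0.57 to 0.95). It was found in 97 WT and 62 mutant SMCs.

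Basement membrane genes, which form the sheath around each SMC, had a median of 0.04 over 21 compared. None of them was past the fold, where 1.38% of all genes were higher and 1.7% lower. Sparc, a collagen-binding protein, was lowest, at 2072 CPM in WT against 1063 CPM in the mutant (-0.96, -1.06 to -0.87), and at -0.71 without the deepest WT cell, which held 622 of its UMIs. Its relative Sparcl1, which that cell hardly carried, stood at 3360 and 1961 CPM (-0.78, -0.85 to -0.70). At the other end was Col4a5, a type IV collagen chain, at 97.6 and 195 CPM, a log2 ratio of 0.997 (0.69 to 1.30) that lay just under the fold. Its ratio was -0.79 in the other cells. The laminin chains Lamb2 and Lamc1 stood at 0.39 and 0.40, with intervals that leave out 0.

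**Figure D4:**
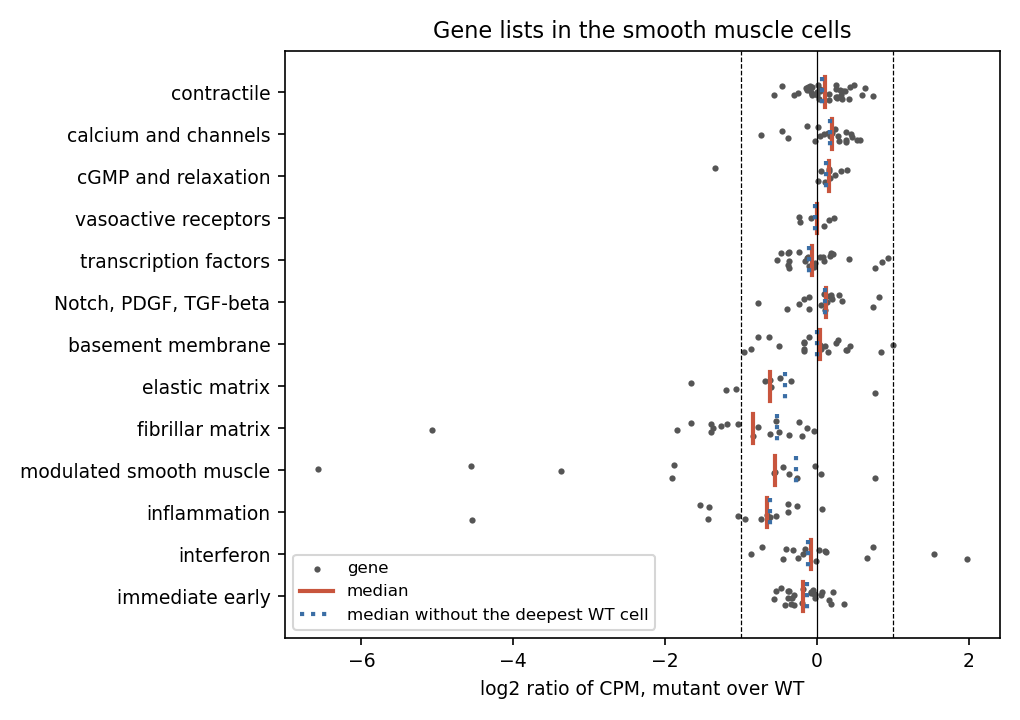
Each point is 1 gene, placed by the log2 ratio of CPM of mutant over WT SMCs (x axis) in the row of its list, with list medians in red, medians without the deepest WT cell as dotted blue lines and dashed lines at 2-fold. Contractile, channel and receptor genes sit around 0, while the fibrillar matrix median moves from -0.84 to -0.52 without that cell.

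In both the inflammation and the phenotypic modulation list, more genes were lower by the fold than higher in the summed mutant SMCs. Of 15 inflammatory genes compared, 5 were lower by the fold and 0 higher (1.7% and 1.38% of all genes), with a median of -0.66. Without the deepest WT cell 4 of 14 compared were lower, with a median of -0.61. Cebpb, a transcription factor of the acute response, stood at 472 CPM in WT against 230 CPM in the mutant (-1.04, -1.25 to -0.83). The neutrophil attractant Cxcl1 stood at 202 and 69.5 CPM (-1.54, and -1.13 without the cell), and Il6 at 113 and 42.4 CPM (-1.42, and -1.28). Ptgis, which makes prostacyclin, a dilator of vessels, stood at 100 and 37.0 CPM (-1.44). Cxcl1 was found in 45 WT and 18 mutant SMCs and Il6 in 29 and 12, so most SMCs of both libraries had no UMI of either. Saa3 changed sides, with a log2 ratio of -4.54 with the deepest WT cell and 1.82 without it. Without that cell Saa3 no longer reached the minimum of 100 UMIs. Of 13 modulation genes compared, 5 were lower by the fold, where 1.7% of all genes were, with a median of -0.56, and 3 of 11 without that cell, with a median of -0.27. None was higher by the fold, and 2 lay above 0, up to 0.76. The fibroblast genes, at 2353 and 784 CPM in the SMCs and with 4 of 5 compared lower by the fold, moved with both lists, and the part of fibroblast RNA was not tested.

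Among interferon and antigen presentation genes, 2 of 16 were past the fold, both higher and both of the class II pathway, where 1.38% of all genes were higher. Cd74, the invariant chain, had 46 UMIs in 34 WT SMCs and 126 in 48 mutant SMCs (1.98, 1.48 to 2.50), and H2-Aa had 33 and 67 UMIs (1.55, 0.93 to 2.20). These genes belong to macrophages and B cells, where their levels are far higher: the other kept cells had 1872 and 2364 CPM of Cd74 against 28.8 and 114 CPM in SMCs. The ratio of Cd74 was 1.19 in SMCs with 4 or more Myh11 UMIs. It fell under the fold, to 0.99, without the SMCs that held 20 or more UMIs of another lineage or 100 or more of haemoglobin, and was 0.45 in SMCs with Rgs5 alone. It was 2.68 in SMCs without Rgs5, and 2.05 without SMCs of 3 or more UMIs of another lineage. Immediate early genes, which respond to stimuli and to tissue dissociation, were within the fold for all 25 compared, with a median of -0.18. Of all genes, 1.38% were higher and 1.7% lower. Fos stood at 4097 CPM in WT against 3339 CPM in the mutant, and Egr1 at 1984 and 1919 CPM. Of the 8 hypoxia genes compared none was past the fold, and their median was -0.43, as it was in the other cells.

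Over all genes compared, the 10 with the highest ratios were Pappa2, Ngp, Kcnq5, Hist1h2ap, S100a9, Slc22a3, mt-Atp8, S100a8, Cd74 and Col19a1. Slc22a3, an organic cation transporter that takes up monoamines, was spread over more SMCs than Pappa2, Kcnq5 and Col19a1. It had 62 UMIs in 25 of 149 WT SMCs and 190 UMIs in 48 of 91 mutant SMCs (38.8 and 171 CPM, log2 2.14, 1.72 to 2.58). The log2 ratio of Slc22a3 ran from 1.45 to 3.10 over 16 alternatives. It was lowest without SMCs of 3 or more UMIs of another lineage. After thinning to 2000 UMIs per cell, 2.76% of WT and 20.7% of mutant SMCs held a Slc22a3 UMI, against 0.106% and 0.202% of endothelial cells (median depths 4482 and 5364 UMIs before thinning). Pappa2, a protease of growth factor binding proteins, reached 45 and 287 UMIs in only 8 and 5 SMCs, and 1 mutant cell held 158 of them. Col19a1 was in 5 and 12 SMCs and the potassium channel gene Kcnq5 in 10 and 18. S100a8, S100a9 and Ngp are neutrophil genes, with S100a9 at 84.5 and 407 CPM in SMCs and 6110 and 10444 CPM in the other cells. In the SMCs with 4 or more Myh11 UMIs, S100a9 stood at 84.2 and 214 CPM. Ngp was at a log2 ratio of 1.44 in those cells and S100a8 at 1.10. Without SMCs of 3 or more other-lineage UMIs, S100a9 and S100a8 were under the fold, at 0.87 and 0.88, and without SMCs of 20 or more such UMIs or 100 or more of haemoglobin they were at 0.92 and 0.80. Since S100a8 and Lyz2 are among the markers of that filter, part of this was set by it. With both not used and a limit of 3 UMIs, S100a9 was at 1.28 (0.96 to 1.61) and S100a8 at 1.36 (0.99 to 1.73). Hist1h2ap, a histone gene of dividing cells, had 111 of its 123 mutant UMIs in 1 SMC with 3979 haemoglobin UMIs, and its ratio was 0.95 without its top cell in each library. mt-Atp8, of the mitochondrial genome, was higher in SMCs (27.5 and 120 CPM) and in the other cells (13.04 and 46.0 CPM) alike.

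The 10 genes with the lowest ratios were Mmp13, Cxcl5, Lbp, Mmp3, Rpl29, Dcn, Spp1, Saa3, Ibsp and Hp. Except for Rpl29, 59.2% or more of the WT UMIs of each lay in 1 cell, which was the deepest WT cell for all but Ibsp. Mmp3 had 0 UMIs in the mutant, so its ratio used a floor of 3 UMIs and its place is not exact. Mmp13, Cxcl5 and Lbp had 1 mutant UMI each, which was used as counted. Lower genes spread over many SMCs were named after their values were seen. Tmeff2, a transmembrane protein with follistatin domains, had 182 UMIs in 46 WT SMCs and 14 UMIs in 10 mutant SMCs (-3.17, -4.07 to -2.39). Cp, ceruloplasmin, which oxidises iron, had 169 UMIs in 31 and 17 UMIs in 11 SMCs (-2.79, -3.60 to -2.06). Adamts4, a protease of matrix proteoglycans, had 598 UMIs in 89 and 158 UMIs in 31 SMCs (-1.39, -1.66 to -1.14), and Cdkn1a, a brake on the cell cycle, 457 in 96 and 131 in 37 (-1.28). The deepest WT cell held 0, 16, 5 and 8 of the UMIs of these genes. In the other kept cells the ratios were -0.79 for Tmeff2, -0.18 for Cp, -0.97 for Adamts4 and -0.67 for Cdkn1a. Cdkn1a was at -1.34 in endothelial cells.

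SMCs were set beside the pericytes of the same library, which share many genes with them but do not form the muscular coat. Of 3947 genes with enough UMIs, 437 (11.1%) were at least 2-fold higher in SMCs in both libraries and 233 (5.9%) at least 2-fold lower. The pericytes held few UMIs and were chosen in part by low Myh11, so this is a description. Kcnma1, Pln, Ryr2, Tesc, Ccdc3, Map3k7cl, Fbxl22, Adcy5, Asb2 and 2900026A02Rik led the genes above pericytes, which held 0 UMIs of each in both libraries. Below pericytes were Grm7, Cxcl12, Pappa, Eps8, Adcy2, Art3, Eda, Runx2, Ptprd and Plxdc2. Runx2 rested on few pericytes, with 29 UMIs in WT and 66 in the mutant. After thinning, only 8.33% and 7.14% of the pericytes held a Runx2 UMI. Cxcl12, a chemokine, stood at 198 and 127 CPM in SMCs against 2526 and 2506 CPM in pericytes. Notch3 was alike in both, 849 and 933 CPM in SMCs and 962 and 941 CPM in pericytes.

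SMCs differed among themselves in Rgs5, which encodes a brake on G protein signalling and is abundant in pericytes and in SMCs of small vessels. It was found in 98 of 149 WT and 46 of 91 mutant SMCs, with medians of 5 and 1 UMIs and up to 373 and 205 UMIs per cell. After thinning to 2000 UMIs, 75 of 145 WT SMCs (51.7%, 43.3 to 60.1) and 41 of 82 mutant SMCs (50%, 38.7 to 61.3) held at least 1 UMI, a difference of -1.72 points (-15.0 to 11.6). In neutrophils, which should lack the gene, 0.431% and 3.21% of cells did so (median depths 7010 and 4469.5 UMIs before thinning). The interval of the difference includes 0 and is wide.

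The cells with and without Rgs5 differed in the same direction in WT and in the mutant for the genes that follow. Ednrb stood at 309 CPM in WT cells with Rgs5 and 59.5 CPM in those without, and at 327 and 13.2 CPM in the mutant. The chloride channel gene Ano1 stood at 529 and 194 CPM in WT and 557 and 197 CPM in the mutant, Steap4, a metalloreductase, at 187 and 36.2 CPM and at 189 and 9.87 CPM, and Higd1b at 228 and 37.4 CPM and at 177 and 23.0 CPM. Notch3 was higher with Rgs5 as well, at 1076 and 653 CPM and at 1228 and 715 CPM. Of the 36 contractile genes, 32 were lower in cells with Rgs5 in both libraries, 2 were higher in both and 2 went opposite ways, while 22.4% of 3659 genes with at least 50 UMIs in each library were lower in both. Myh11, Acta2 and Tagln, which chose the SMCs, are among the 36. Cnn1, calponin, stood at 137 CPM with Rgs5 and 537 CPM without in WT, and at 103 and 709 CPM in the mutant, and Kcnma1 at 266 and 845 CPM and at 520 and 950 CPM. Des, desmin, was on the other side, at 287 and 195 CPM and at 363 and 224 CPM. Myh11 was at 3056 and 4995 CPM in WT and 4304 and 6567 CPM in the mutant. Cells with Rgs5 had a median of 8923 UMIs in WT, and those without had 11451.5. In the mutant the medians were 12816 and 14988.

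**Figure D5:**
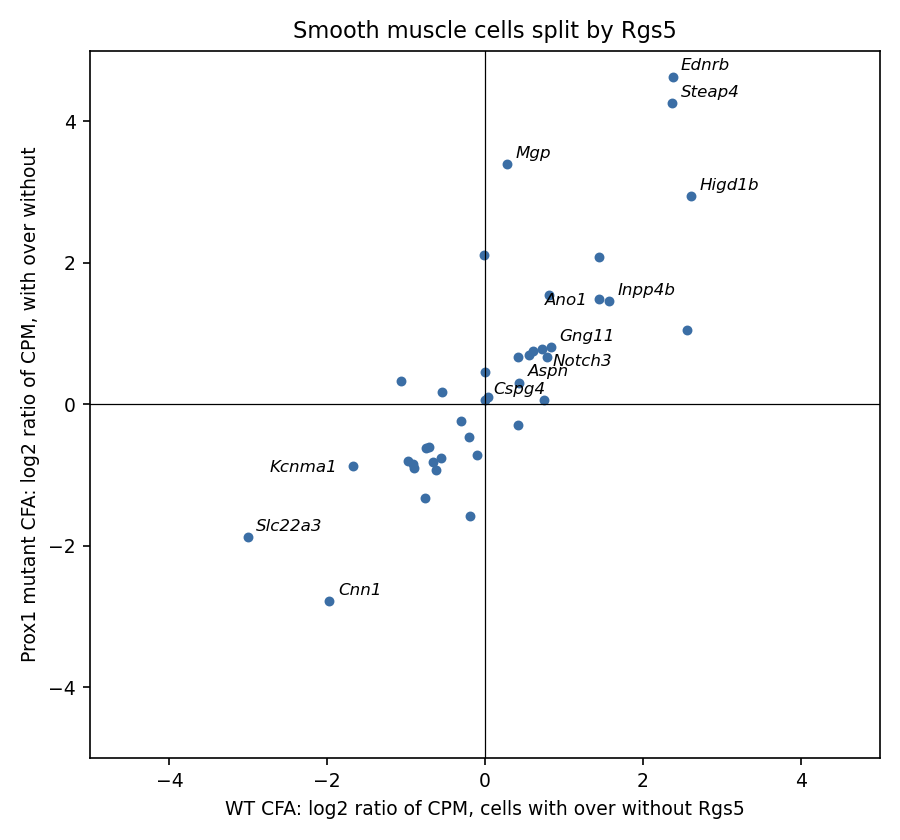
Each point is 1 of 40 genes chosen after values were seen, with at least 50 UMIs in each library, placed by the log2 ratio of CPM of SMCs with over SMCs without Rgs5 in WT (x axis) and in the mutant (y axis). Of these, 34 lie on the same side of 0 in both libraries. Since the genes were chosen with values known, this count does not measure how far the libraries agree. Ednrb, Steap4 and Higd1b lie at the upper right and Cnn1 and Slc22a3 at the lower left.

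Correlations over single cells describe the same thinned counts that set the Rgs5 classes, so they are no separate support for the split. Over 145 WT and 82 mutant SMCs thinned to 2000 UMIs, Rgs5 had Spearman correlations of 0.53 and 0.44 with Inpp4b, a lipid phosphatase gene, 0.35 and 0.51 with Ano1, and 0.34 and 0.37 with Ednrb. With Cnn1 they were -0.41 and -0.42, and with Myh11 -0.50 and -0.26. Myh11 in turn had 0.52 and 0.62 with Mylk and 0.48 and 0.55 with Myl9. Fos had 0.69 and 0.68 with Egr1 and 0.66 and 0.65 with Junb, which are induced together. The cells of 1 library share its preparation, and of 481671 pairs of genes 0.139% reached 0.3 in both libraries and 0.0309% reached -0.3.

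Ratios of some genes that differed between the libraries were also taken within each class of SMC. Tmeff2 had a log2 ratio of mutant over WT of -3.15 in SMCs with Rgs5 and -3.09 in those without. Hes1 had 0.98 and 0.91, and Dstn 0.85 and 0.68. Sparc had -0.89 with Rgs5, and without Rgs5 -1.03, or -0.30 (-0.46 to -0.13) once the deepest WT cell, which had no Rgs5 UMI after thinning, was left out. Slc22a3, which stood higher in SMCs without Rgs5 (8.13 CPM with and 65.4 CPM without it in WT, and 69.8 CPM with and 257 CPM without it in the mutant), had ratios of 3.10 and 1.97. Mgp was uneven, at 729 and 600 CPM with and without Rgs5 in WT (440 CPM without Rgs5 once the deepest cell was left out) and 869 and 82.2 CPM in the mutant.

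The 10 genes most variable between SMCs in both libraries were Mki67, Car2, Fst, Ccn3, Hbb-bt, Dpt, Hba-a2, Hbb-bs, Asb4 and Pcdh7. Mki67, a gene of dividing cells, was found in 14 WT and 13 mutant SMCs, and 1 cell held 51 of its 102 UMIs in WT and 80.5% of them in the mutant. These cells also held haemoglobin RNA, 7053 of 21673 UMIs in the WT cell and 3979 of 20951 in the mutant cell, whose part in the Mki67 count was not tested. Over these 10 genes the top cell held from 22.4% (Pcdh7) to 72.8% (Car2) of the UMIs in WT and from 26.9% (Hbb-bs) to 80.5% (Mki67) in the mutant. Hba-a2, a globin gene of red blood cells, had 767 of its 1767 WT UMIs in 1 SMC.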

How the data were processed

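Single-cell RNA-seq was performed by the authors on dissociated TMJ, 1 library per condition. The deposited values are raw UMI counts of 32285 genes per barcode, which the authors made with Cell Ranger 7.0.1 on GRCm38 (mm10) without normalization. The counting of intronic reads and the removal of doublets are not given in the sources used here. The sample records and the paper name different kit versions and digestion enzymes, and neither was checked. The depth was 53517206 UMIs in 5709 WT barcodes and 62446987 UMIs in 7846 mutant barcodes.

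The cell filter of the study was used, a minimum of 500 genes with less than 10% of UMIs from mitochondrial genes. SMCs and comparison cells were chosen by raw UMI counts. No doublet caller was run, and cells with UMIs of other lineages were left out as an alternative. CPM is UMIs per 1000000 UMIs of the summed cells. Log2 ratios of CPM were taken for genes that reached 100 UMIs when both libraries were added, and a gene was past the fold at a ratio of at least 2 or at most 0.5. Intervals are at 95%: Clopper-Pearson for shares, Newcombe for differences and exact for ratios. Against pericytes, genes needed 50 UMIs in each library. Shares of cells with a UMI and correlations used cells thinned at random to 2000 UMIs, which left out 4 WT and 9 mutant SMCs.

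Genes named are those of 28 lists, the 10 highest and 10 lowest ratios, the 20 highest over other cells, the 10 most variable, and the 10 highest and lowest against pericytes. Tmeff2, Cp, Adamts4, the genes of the split by Rgs5, the correlated genes, Olfr558 and Lyve1 were named after their values were seen. The members, lists and comparisons were chosen with earlier results of these data known. The lists of Schwann cell (105 and 38.8 CPM summed in WT and mutant SMCs), lymphatic endothelial (62.6 and 54.1 CPM), lymphocyte (21.3 and 19.8 CPM), adipocyte (169 and 191 CPM) and cartilage and bone genes (133 and 44.2 CPM) served as checks for other cells. The cell cycle list had 1 gene of 6 lower by the fold, Cdkn1a, and 2 once each gene's top cell was left out. The lists shared by mural cells and of pericytes had 0 of 15 and 1 of 9, Postn (1.7% of all genes were lower). The pericyte count became 0 without the deepest WT cell and 3 without each gene's top cell.

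Alternatives changed the cell filter, the Myh11 threshold, the depth, the scaling, the UMI minimum, the fold, the cells left out and the denominator. Leaving out the deepest WT cell, each gene's top cell, SMCs by Rgs5 and SMCs of 20 other-lineage or 100 haemoglobin UMIs, and changing the markers of the other-lineage filter, were chosen after seeing the data. Ratios and intervals were tested on simulated counts that had no variation between cells. That test therefore cannot show how the intervals behave where a few cells hold most UMIs of a gene. Python 3.11.15 with numpy 2.4.6, scipy 1.17.1 and pandas 2.3.3 was used, with matplotlib 3.10.9 for the plots and edgeR 4.0.16 in R 4.3.3 for TMM scaling. Promoter sequences are from RefSeq (GRCm38.p6).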

Additional observations from a re-analysis of the deposited data

Results flagged for a closer look

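Barcodes outside the comparisons met the UMI rule for SMCs but had 10% or more mitochondrial UMIs, and were therefore left out. There were 52 in WT, 25.6% of all barcodes that met the rule at any number of genes (Clopper-Pearson interval 19.8 to 32.2), and 20 in the mutant, 17.7% (11.2 to 26.0). Of all barcodes with at least 500 genes, the same filter left out 8.67% in WT and 6.48% in the mutant. The excluded barcodes had medians of 14.3% and 16.001% mitochondrial UMIs, 6725 and 3963.5 UMIs in all, and 45.5 and 31.5 UMIs of Myh11. Outside mitochondrial genes, the contractile list took 89093 and 79146 CPM in them, against 64127 and 66689 CPM in the SMCs that were kept.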

How the results depend on the processing

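No paired analysis was possible because each condition has 1 library. Counting error is the only error measured, so no value here says how far mice differ. Leaving out barcodes found in both libraries removed no SMC and is counted among the alternatives here. The mutant over WT ratio of the SMC share, 0.462, kept its direction under 10 of 11 alternatives. It was 0.634 with a filter of 1000 genes and 5% mitochondrial UMIs, 0.351 without SMCs that held 3 or more UMIs of another lineage, 0.722 without cells of over 5% haemoglobin UMIs in the denominator, 0.936 with SMCs and pericytes as the denominator and, reversed, 1.15 per endothelial cell. The last 3 change only the denominator, and the cause of the others was not tested.

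The counts of 61 higher and 75 lower genes were the same with TMM factors of 1.0006 and 0.999. With a minimum of 30 UMIs 204 were higher and 323 lower, with 300 UMIs 18 and 27, and with a fold of 1.5 there were 214 and 320, since these settings change how many genes can pass. Giving each cell equal weight gave 92 higher, and SMCs with Rgs5 alone gave 35 higher of only 2296 compared (1.52%). Lower genes numbered 38 of only 2048 (1.86%) without SMCs of 3 or more UMIs of another lineage, 44 of 4069 (1.08%) without those of 20 or more such UMIs or 100 haemoglobin UMIs (chosen after seeing the data), and 29 of 3902 (0.743%) without the deepest 5% of SMCs in each library. Shares of lower genes were above the 1.7% of all SMCs with a filter of 1000 genes and 5% mitochondrial UMIs (79 of 2300, 3.43%) and in SMCs with (59 of 2296, 2.57%) and without Rgs5 (64 of 2541, 2.52%). They were also above it with a minimum of 1 (101 of 4579, 2.21%) or 4 Myh11 UMIs (84 of 4371, 1.92%). Without each gene's top cell the share was 1.88% (83 of 4421). The settings with 2296 and 2048 genes leave far fewer to compare, and the cause of the other moves was not tested.

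The 9 lower fibrillar matrix genes became 4 with the rule on thinned cells, 1 without SMCs of 3 or more other-lineage UMIs, 2 without those of 20 or more or of 100 haemoglobin UMIs, 2 with equal weights, 0 without the deepest 5%, 4 without the deepest WT cell and 2 in SMCs with Rgs5. The contractile median of 0.10 was -0.15 with equal weights and between -0.04 and 0.25 otherwise.

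Single genes reversed 13 times among 306 values, and 99 more values moved in size without changing direction. The 306 include settings that could hardly move a ratio, such as TMM scaling and leaving out barcodes found in both libraries, which removed no SMC. Saa3 was at 1.004 with the rule on thinned cells, 0.69 without SMCs of 3 or more other-lineage UMIs, 1.26 without those of 20 or more or of 100 haemoglobin UMIs, 2.13 without the deepest 5%, 1.67 without its top cells, 1.82 without the deepest WT cell and 1.49 in SMCs with Rgs5. Mmp13 was at 0.51 without the deepest 5%, Cxcl5 at 0.30 with the rule on thinned cells and Hp at 0.46 without SMCs of 3 or more other-lineage UMIs. Hist1h2ap, higher by 2.34, was at -3.40 with the rule on thinned cells, -1.10 without SMCs of 20 or more other-lineage or 100 haemoglobin UMIs and -2.57 in SMCs with Rgs5.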

Other observations

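Olfr558, an odorant receptor gene, had most of its UMIs in SMCs in both libraries. It had 562 UMIs in 113 of 149 WT SMCs and 497 UMIs in 62 of 91 mutant SMCs (352 and 448 CPM, log2 0.35, 0.17 to 0.53). The SMCs held 71.3% of all its UMIs in the kept WT cells and 63.5% in the kept mutant cells, and endothelial cells held 1 in each library. Pericytes held 4 and 5 UMIs (80.2 and 66.3 CPM), and the other cells that held the rest were not sorted out. After thinning to 2000 UMIs, 46.9% and 46.3% of SMCs held a UMI, against 0.106% of WT endothelial cells and 0.247% of mutant neutrophils.

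Lyve1, a receptor known from lymphatic endothelium and from macrophages, was found in 40 of 149 WT SMCs (64 UMIs) and 17 of 91 mutant SMCs (27 UMIs), although the rule left out cells with Pecam1 or Ptprc. These were 25.1% and 10.3% of its UMIs in all kept cells. After thinning, 10.3% of WT and 3.66% of mutant SMCs held a UMI, against 0.539% and 0.202% of endothelial cells and 1.23% of mutant neutrophils. Ccl21a and Mmrn1, other genes of lymphatic endothelium, were at 0 in the SMCs of both libraries, and Flt4 had 1 and 3 UMIs.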
